A study of Rattus norvegicus with 4 samples.

Results

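The 36 genes described here encode glycolytic enzymes and other components of the response to low oxygen. They were taken by name from a table of 14410 genes measured by RNA-seq, and all 36 had a row. By role they were 17 glycolytic enzymes, 4 regulators of glycolytic flux, 3 glucose and lactate transporters, the transcription factor gene Hif1a, and 11 other targets of hypoxia-inducible factor (HIF). The cells were CG4, a rat glial progenitor line that can form oligodendrocytes. In the group named Phf8oe the cells carried a CAG-Phf8-IRES-GFP retrovirus, which expresses the histone demethylase gene Phf8 together with green fluorescent protein (GFP). In the group named ctrl they carried CAG-IRES-GFP, so both groups held a virus, the CAG promoter and GFP on a wild-type background. Cells of both groups were sorted for GFP, expanded and kept for 3 days in a medium that induces differentiation, with 2 replicates each. Separate transductions are not stated for the replicates, so p-values measure the spread between these preparations only, all of 1 cell line.

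Cells split glucose into pyruvate through glycolysis, and lactate dehydrogenase turns pyruvate into lactate when it is not burned in mitochondria. HIF is a pair of proteins whose alpha subunit, encoded by Hif1a, is marked for destruction by oxygen-dependent prolyl hydroxylases. When oxygen is short the subunit persists, and HIF raises the transcription of most glycolytic enzymes and of genes for vessel growth, collagen modification, mitophagy and pH control. Mature oligodendrocytes are known for a glycolytic metabolism and for handing lactate to axons. Setting Phf8oe against ctrl addresses how expression differs when Phf8 is added, and the values are mRNA levels, which say nothing of HIF protein.

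The libraries held an estimated 28400000 (Phf8oe replicate 2) to 47800000 (ctrl replicate 1) assigned reads. Phf8 itself stood at 5650 and 10796 normalized counts in Phf8oe and 2026 and 2205 in ctrl (limma adjusted p = 0.0631). Mitochondrially encoded transcripts took 5.34% and 4.76% of the values in Phf8oe and 3.68% and 3.62% in ctrl. All 11 markers listed for the oligodendrocyte lineage were measured, and they summed to 759468 and 695998 in Phf8oe against 506906 and 500638 in ctrl. Among these, Mbp, Mog and Mag rose and the progenitor receptor gene Pdgfra fell. The 5 astrocyte markers measured, of 6 listed, summed to 12545 and 21452 in Phf8oe against 80336 and 82115 in ctrl, mostly Gfap, with 2 risen and Gfap fallen. The 6 neuronal markers summed to 12568 and 10949 in Phf8oe against 12476 and 12966 in ctrl, mostly Map2 and Syt1. Of the 6, 5 had a negative log2 fold change (83.3%, against 49.6% of all genes tested), with a median of -1.03. Of these, 4 lay lower without overlap (66.7% of the 6, against 28.7% of all genes). Rbfox3, Snap25, Slc17a6 and Gad1 held the most negative changes and had 98 or fewer normalized counts in every library. Endothelial marker sums lay between 319 and 534 over the 4 libraries and microglial ones between 142 and 214, and no neuronal, endothelial or microglial marker was called. Col1a1, the 1 fibroblast marker measured of 5, fell. No measured marker was at 0 in every library. The part of these marker and mitochondrial differences in the results that follow was not tested. Ctrl replicate 2 was the highest library for 25 of the 35 members tested (71.4%, against 17.6% of all genes), so the members' counts and median are also given without it.

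Hif1a fell 2.39-fold in Phf8oe. Of the lactate dehydrogenase genes, Ldha fell 1.37-fold and Ldhb rose 1.41-fold. Pfkfb4, which helps set the level of an allosteric activator of glycolysis, fell 1.81-fold. Fewer cells of a type and less RNA per cell cannot be told apart in bulk samples such as these. Of the 35 members tested, 1 rose, 3 fell and 31 did not pass, and 4 of 35 is 11.4% against 7.64% of all 14368 genes tested (2.99% risen and 4.65% fallen). The test was limma on log2(normalized count + 1), with an adjusted p under 0.05 called, and every fold change here is on that scale, which understates changes of low genes. Of the 35, 27 had a negative log2 fold change (77.1%, against 49.6% of all genes tested), and the median was -0.23 against 0 for all genes. Without ctrl replicate 2 it was 23 of 35 with a median of -0.06, and without ctrl replicate 1 it was 30 of 35 with a median of -0.37. Without Phf8oe replicate 1 and without Phf8oe replicate 2 it was 25 and 24 of 35, with medians of -0.24 and -0.16. Eno2 was the member left untested, with 24 and 8 normalized counts in Phf8oe and 8 and 7 in ctrl, too few libraries reaching the minimum of 10.

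How many members passed depended on which libraries were used. It was 0 without ctrl replicate 1 (0.14% of all genes), 2 without ctrl replicate 2 (1.33%), 6 without Phf8oe replicate 1 (12.9%) and 7 without Phf8oe replicate 2 (15%). Leaving out a ctrl library leaves the spread to be read between the Phf8oe libraries alone. Over all genes these were farther apart (correlation 0.989) than the ctrl libraries (0.994). Over the tested members the median absolute log2 difference went the other way, at 0.15 between Phf8oe libraries and 0.27 between ctrl libraries. Over all genes that measure was 0.17 and 0.14. Of the called members, Hif1a differed 1.2-fold between Phf8oe libraries and 1.06-fold between ctrl libraries. In the same order it was 1.11 and 1.07 for Ldha, 1.25 and 1.16 for Pfkfb4, but 1.01 and 1.14 for Ldhb. Why calls were lost was not tested. The calls of Hif1a, Ldha, Ldhb and Pfkfb4 were all kept whichever Phf8oe library was left out. With moderation that was not robust 4 members passed, Pfkfb3 in place of Ldha (5.61% of all genes), with upper quartile scaling 3 (8.44%) and with 1 variance prior for all levels none (0% of all genes, with 3133 genes at an unadjusted p under 0.05).

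**Figure D1:**
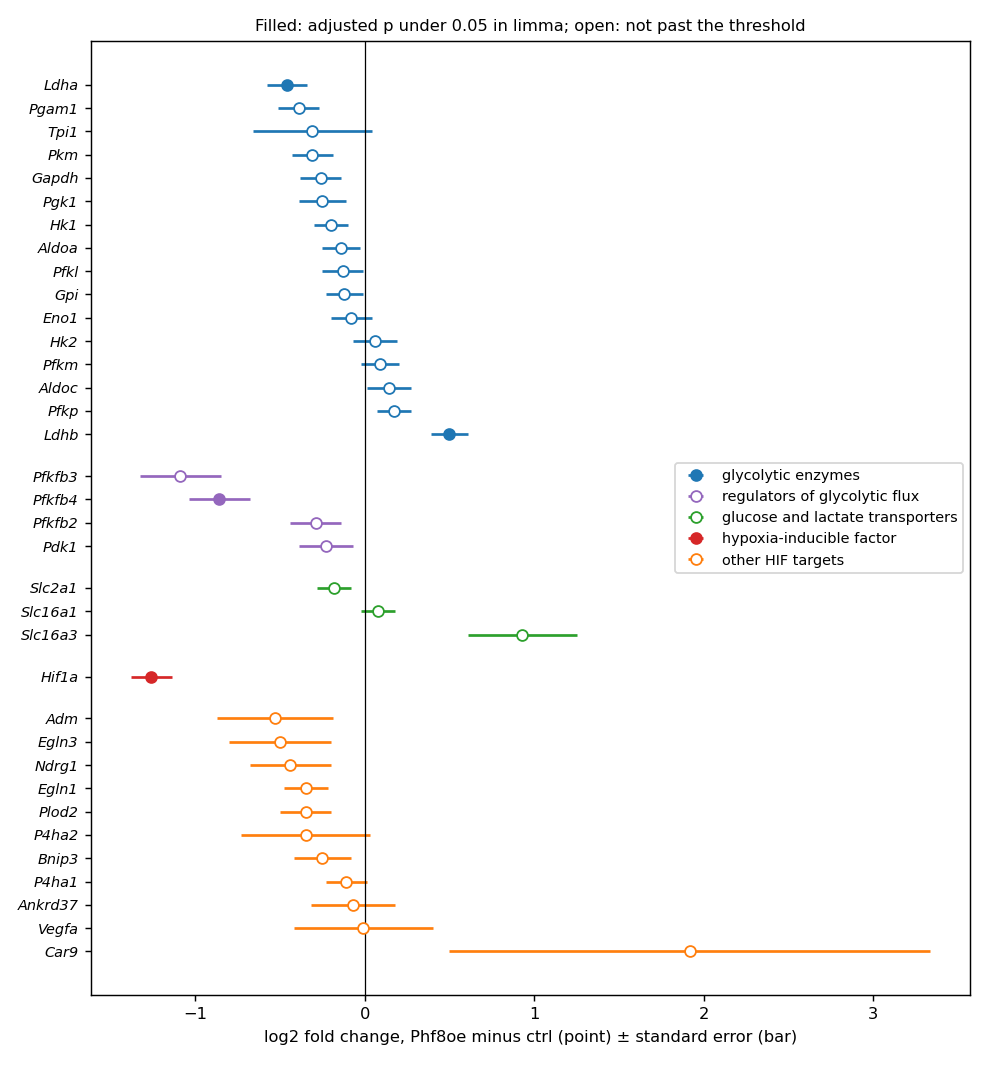
Log2 fold change of Phf8oe minus ctrl (x axis) for the 35 tested members (y axis), coloured by role; bars are the standard error from limma and filled points passed the threshold. Hif1a at -1.26, Pfkfb4 at -0.86, Ldha at -0.46 and Ldhb at 0.50 are filled, and Car9 has the widest bar.

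The promoters of the 4 members that passed are shown because HIF binds DNA at a short core, ACGTG or GCGTG, in the regulatory regions of its targets. Each window runs from 250 bases before to 50 bases after the RefSeq transcript start in the GRCr8 assembly, 5′ to 3′ on the gene's strand. Capitals mark ACGTG or GCGTG on either strand, so CACGT and CACGC are marked too, and the palindrome CACGTG holds a match on each strand and is also the E-box of other factors. The windows are Hif1a at chr6:98359648-98359947 on the plus strand, Ldha at chr1:106507842-106508141 on the plus strand, Ldhb at chr4:177177359-177177658 on the minus strand and Pfkfb4 at chr8:118525916-118526215 on the plus strand.
Hif1a: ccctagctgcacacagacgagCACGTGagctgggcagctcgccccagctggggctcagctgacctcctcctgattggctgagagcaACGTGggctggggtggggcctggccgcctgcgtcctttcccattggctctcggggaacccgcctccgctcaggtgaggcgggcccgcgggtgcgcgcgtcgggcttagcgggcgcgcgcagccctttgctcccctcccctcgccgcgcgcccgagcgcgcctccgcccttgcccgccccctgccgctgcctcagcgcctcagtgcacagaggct
Ldha: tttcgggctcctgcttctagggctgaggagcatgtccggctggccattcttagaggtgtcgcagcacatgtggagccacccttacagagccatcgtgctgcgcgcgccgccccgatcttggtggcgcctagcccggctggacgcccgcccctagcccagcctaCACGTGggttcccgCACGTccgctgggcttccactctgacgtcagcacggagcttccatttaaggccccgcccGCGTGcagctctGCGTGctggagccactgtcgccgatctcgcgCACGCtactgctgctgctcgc
Ldhb: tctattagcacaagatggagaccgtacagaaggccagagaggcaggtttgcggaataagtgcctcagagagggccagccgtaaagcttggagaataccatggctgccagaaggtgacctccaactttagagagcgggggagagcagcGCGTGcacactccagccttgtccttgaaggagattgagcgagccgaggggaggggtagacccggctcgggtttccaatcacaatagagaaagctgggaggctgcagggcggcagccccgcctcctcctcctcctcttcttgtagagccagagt
Pfkfb4: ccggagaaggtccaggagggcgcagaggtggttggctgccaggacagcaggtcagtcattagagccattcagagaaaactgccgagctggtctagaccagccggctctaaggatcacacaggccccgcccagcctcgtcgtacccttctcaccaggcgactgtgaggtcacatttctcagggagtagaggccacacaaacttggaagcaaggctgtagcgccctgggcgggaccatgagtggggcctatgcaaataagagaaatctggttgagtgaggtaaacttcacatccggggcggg
Ldha had 6 matches (3 of ACGTG and 3 of GCGTG, counted on both strands), and Ldhb had 1, of GCGTG. Hif1a had 3 matches, all of ACGTG, and Pfkfb4 had none in this window. Of the 36 members 34 had a window, with 39 windows in all because some genes have several starts. ACGTG on either strand was found in 22 of the 39 (56.4%), against 24.2% of the 11164 windows of genes tested here and 19.3% of all 33469 windows in the table. For GCGTG the shares were 46.2% of member windows and 48.4% of windows of tested genes. Among glycolytic enzymes 10 of 20 windows held ACGTG, and among other HIF targets 7 of 11. The members were listed as HIF targets or their partners, so this describes the windows and is not a test of binding. A link between the number of matches and the direction of change was not tested.

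Hif1a had 17376 and 20865 normalized counts in the Phf8oe libraries, against 44243 and 46805 in the ctrl libraries. Both Phf8oe libraries lay far below both ctrl libraries, and the gap between groups was much wider than the gap within either. This gave a log2 fold change of -1.26 (SE 0.12, limma adjusted p = 0.00147). It ranged from -1.39 to -1.12 when 1 library was left out at a time, and passed without any library except ctrl replicate 1 (adjusted p = 0.0544). The call was also lost with 1 variance prior for all levels (adjusted p = 0.0944), as were all calls of that fit. Epas1, the gene of the other main alpha subunit, HIF-2α, was named after its values were seen: it had 11399 and 13499 in Phf8oe and 11309 and 11721 in ctrl (log2 fold change 0.11, limma adjusted p = 0.588), and its groups overlapped.

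**Figure D2:**
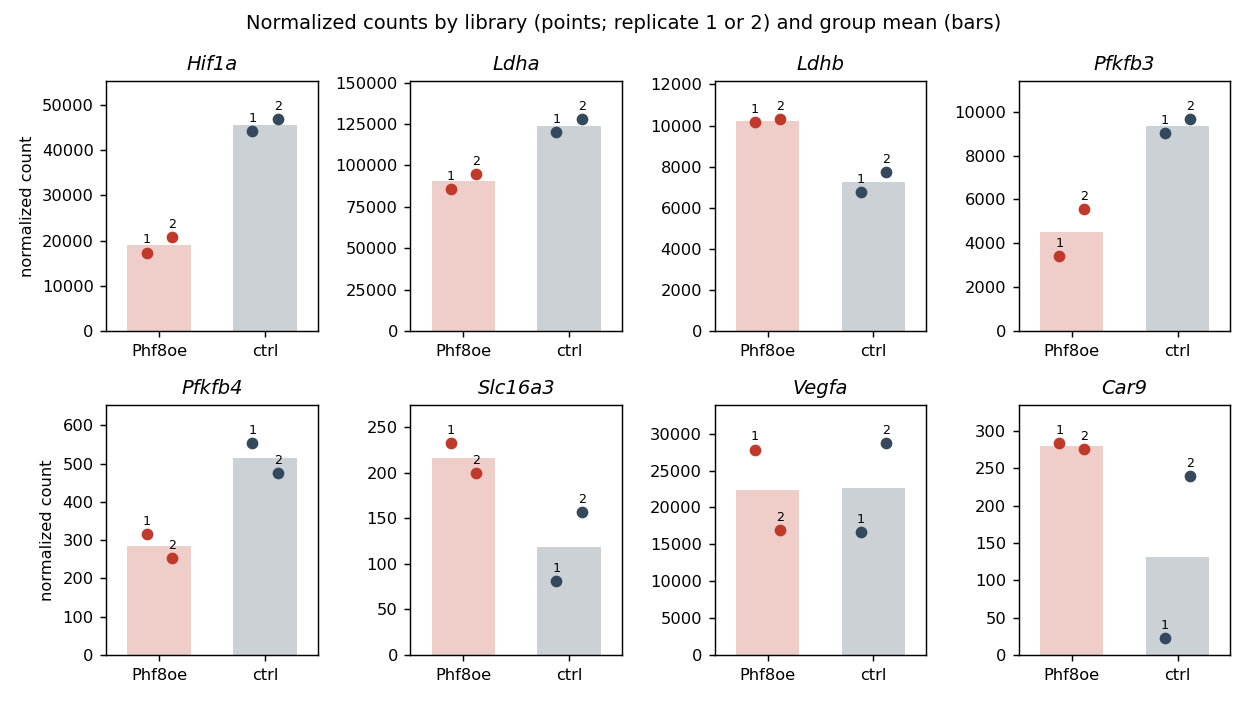
Normalized counts (y axis, from 0) of 8 members in each library (points, numbered by replicate) with group means (bars), Phf8oe left of ctrl. Hif1a, Ldha, Pfkfb3 and Pfkfb4 lie lower and Ldhb and Slc16a3 higher in both Phf8oe libraries, Vegfa overlaps between the groups, and ctrl replicate 1 of Car9 stands at 22.

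Ldha encodes the lactate dehydrogenase subunit that predominates in glycolytic tissue and favours making lactate. It had 85848 and 95122 normalized counts in Phf8oe and 119990 and 127908 in ctrl. The groups did not overlap, and the log2 fold change was -0.46 (SE 0.12, limma adjusted p = 0.0463). Ldhb encodes the subunit that predominates in tissues that burn lactate, such as the heart. It had 10172 and 10312 in Phf8oe and 6768 and 7744 in ctrl (log2 fold change 0.50, SE 0.11, limma adjusted p = 0.0264). Both Phf8oe libraries lay below both ctrl libraries for Ldha and above both for Ldhb, and library scaling, which shifts both genes alike, does not enter their ratio. Within a library, Ldha counts were 8.44 and 9.22 times those of Ldhb in Phf8oe and 17.7 and 16.5 times in ctrl, uncorrected for transcript length. The log2 ratio averaged 3.14 ± 0.09 in Phf8oe and 4.10 ± 0.07 in ctrl (SD, n = 2 each). The difference was -0.96, with an exact two-sided permutation p of 0.333, the smallest that 2 against 2 libraries allow, and 0.5 after Benjamini-Hochberg adjustment over the 6 pairs compared. The calls of both genes were lost without ctrl replicate 1 (limma adjusted p = 0.303 for Ldha and 0.317 for Ldhb) and without ctrl replicate 2 (0.239 and 0.0851). Ldha also missed the threshold with upper quartile scaling (adjusted p = 0.0601) and without robust moderation (adjusted p = 0.0942). Neither gene passed with the replicate number as a further term (limma adjusted p = 0.081 for Ldha and 0.0694 for Ldhb). The same held with 1 variance prior for all levels (0.164 and 0.157).

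The other glycolytic enzymes formed a band of small differences, none of which passed. Gapdh, the glyceraldehyde-3-phosphate dehydrogenase, had 73418 and 81214 normalized counts in Phf8oe and 86132 and 99511 in ctrl. Pkm, pyruvate kinase of muscle and most other tissues, had 89212 and 99403 in Phf8oe and 112042 and 122210 in ctrl. Pgam1, a phosphoglycerate mutase, had 19651 and 22915 in Phf8oe and 26319 and 29561 in ctrl. These 3 enzymes of the lower part of the pathway lay lower in both Phf8oe libraries, with log2 fold changes of -0.26, -0.31 and -0.39. Their limma adjusted p-values were 0.211, 0.13 and 0.0759. Without Phf8oe replicate 2, Pgam1 and Pkm were at -0.51 and -0.39, and both passed with only the spread between the ctrl libraries read.

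Pgk1, the phosphoglycerate kinase, had 38823 and 37730 in Phf8oe and 39887 and 51597 in ctrl (log2 fold change -0.25). Its groups did not overlap, but ctrl replicate 1 was close to the Phf8oe libraries, and the log2 fold change was -0.06 without ctrl replicate 2 and -0.43 without ctrl replicate 1. Eno1, the main enolase, had 89937 and 102090 in Phf8oe and 97854 and 104383 in ctrl (log2 fold change -0.08), and its groups overlapped. Tpi1, triose phosphate isomerase, had 29 and 23 in Phf8oe and 28 and 37 in ctrl. That is very low for an enzyme of a step every cell uses. No source used here states how reads shared with near-identical copies were counted, and Gapdh, Ldha, Pgam1, Eno1 and Tpi1 belong to genes with processed copies in rodents, so their values are uncertain to that extent.

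In the upper part of the pathway, Hk1, the hexokinase of brain, had 6397 and 6011 in Phf8oe and 7204 and 7063 in ctrl (log2 fold change -0.20). Hk2, the hexokinase that HIF is known to induce, had 4313 and 4367 in Phf8oe and 3699 and 4704 in ctrl (log2 fold change 0.06). Hk1 lay lower without overlap and Hk2 overlapped. Gpi, glucose-6-phosphate isomerase, had 25739 and 28355 in Phf8oe and 29191 and 29458 in ctrl (log2 fold change -0.12). The phosphofructokinase genes Pfkl, Pfkm and Pfkp stood at log2 fold changes of -0.13, 0.09 and 0.17. Of these 3, Pfkp alone had groups that did not overlap, with 8670 and 8106 in Phf8oe and 7186 and 7702 in ctrl. Pfkm overlaps Senp1 in the GRCr8 assembly, and since use of strand is not stated their reads may be mixed (Senp1 had 382 and 368 in Phf8oe and 552 and 521 in ctrl).

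Aldoa, the aldolase of muscle and most tissues, had 55842 and 57261 in Phf8oe and 58763 and 65972 in ctrl (log2 fold change -0.14). Aldoc, the aldolase of brain, had 23120 and 21587 in Phf8oe and 18255 and 22622 in ctrl (log2 fold change 0.14). The Aldoc to Aldoa ratio was nevertheless higher in both Phf8oe libraries: its log2 value was -1.27 and -1.41 in Phf8oe and -1.69 and -1.54 in ctrl. The Hk2 to Hk1 ratio was also higher without overlap, at -0.57 and -0.46 in Phf8oe and -0.96 and -0.59 in ctrl. Exact permutation p was 0.333 for both ratios, and no pair can pass at this sample size. Eno2, the enolase of neurons, was at or near the level of a few reads, and its ratio to Eno1 is not read.

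**Figure D3:**
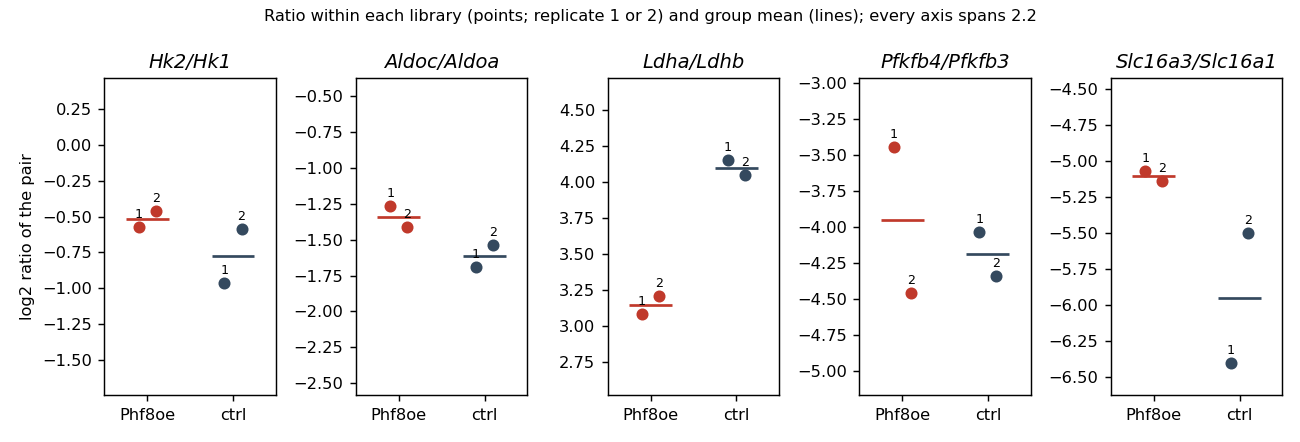
Log2 ratio of the normalized counts of 5 gene pairs (y axis, each spanning 2.2) within each library (points, numbered by replicate) with group means (lines), Phf8oe left of ctrl. The Ldha to Ldhb ratio differs by -0.96 with points close together in each group, while the Pfkfb4 to Pfkfb3 ratio overlaps between the groups.

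The PFKFB enzymes make and break fructose 2,6-bisphosphate, the activator of phosphofructokinase. Pfkfb3 had 3433 and 5579 normalized counts in Phf8oe and 9042 and 9655 in ctrl. Pfkfb4 had 316 and 253 in Phf8oe and 554 and 476 in ctrl. Both Phf8oe libraries lay below both ctrl libraries for each gene, and the Phf8oe libraries differed 1.63-fold from each other for Pfkfb3. Pfkfb4 passed (log2 fold change -0.86, SE 0.18, limma adjusted p = 0.0256), but not without ctrl replicate 1 (adjusted p = 0.292) or ctrl replicate 2 (0.101). Pfkfb4 also missed the threshold with the replicate number as a further term (limma adjusted p = 0.0568) and with 1 variance prior for all levels (0.127). Pfkfb3 had the larger difference and did not pass (log2 fold change -1.09, SE 0.24, adjusted p = 0.0582). Pfkfb3 passed in 5 of the 15 alternative fits, among them the fit without robust moderation (limma adjusted p = 0.0375). Its log2 fold change was -0.74 without Phf8oe replicate 1 and -1.44 without Phf8oe replicate 2. It passed in both of these fits, where only the spread between the ctrl libraries, 1.07-fold apart for this gene, is read.

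Pfkfb2, the form of heart and other tissues, had 577 and 530 in Phf8oe and 739 and 621 in ctrl (log2 fold change -0.29, adjusted p = 0.24). Pdk1, the kinase that shuts pyruvate dehydrogenase and is a HIF target, had 2448 and 2073 in Phf8oe and 2287 and 3054 in ctrl (log2 fold change -0.23, adjusted p = 0.393). Pfkfb2 lay lower without overlap. Pdk1 overlapped, and its log2 fold change was -0.02 without ctrl replicate 2 and -0.44 without ctrl replicate 1.

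Among transporters, Slc2a1 (the glucose transporter GLUT1) had 9219 and 9083 normalized counts in Phf8oe and 10590 and 10161 in ctrl. The log2 fold change was -0.18 (limma adjusted p = 0.269), and the groups did not overlap. Slc16a1, the lactate transporter MCT1 through which oligodendrocytes supply axons, had 7837 and 7088 in Phf8oe and 6918 and 7159 in ctrl (log2 fold change 0.08, adjusted p = 0.644). Slc16a3, the lactate exporter MCT4 of strongly glycolytic cells and a HIF target, had 233 and 200 in Phf8oe and 81 and 157 in ctrl. Slc16a3 was the transporter with the widest difference and lay higher in both Phf8oe libraries, but the ctrl libraries differed 1.94-fold from each other (log2 fold change 0.93, SE 0.32, adjusted p = 0.113). Its log2 fold change was 1.40 without ctrl replicate 2 and 0.46 without ctrl replicate 1. Slc16a3 overlaps Csnk1d in the GRCr8 assembly, which had 8407 and 8916 in Phf8oe and 9259 and 8805 in ctrl.

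None of the 11 other HIF targets passed, where 7.64% of all genes tested did. Their median log2 fold change was -0.35, and 10 of the 11 were negative (90.9%, against 49.6% of all genes). That number was 7 without ctrl replicate 2, 7 without Phf8oe replicate 2, 9 without Phf8oe replicate 1, 10 without ctrl replicate 1 and 9 with upper quartile scaling, where Vegfa was at 0.04. Egln1, the prolyl hydroxylase that marks HIF alpha subunits, had 1929 and 1812 in Phf8oe and 2123 and 2657 in ctrl (log2 fold change -0.35, limma adjusted p = 0.125). Plod2, which hydroxylates collagen lysines, had 9774 and 10390 in Phf8oe and 10999 and 15053 in ctrl (log2 fold change -0.35, adjusted p = 0.187). Egln1 and Plod2 were the targets that lay lower without overlap, with log2 fold changes of -0.18 and -0.13 without ctrl replicate 2 and -0.58 for Plod2 without ctrl replicate 1.

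Vegfa, the main growth factor for blood vessels, had 27859 and 16974 in Phf8oe and 16608 and 28756 in ctrl. Each group held a high and a low library, and the log2 fold change was -0.01 (SE 0.41). Adm, the vasodilator peptide adrenomedullin, had 363 and 357 in Phf8oe and 363 and 743 in ctrl (log2 fold change -0.53, adjusted p = 0.385). Only ctrl replicate 2 stood apart for Adm: without that library the log2 fold change was -0.01. Car9, the membrane carbonic anhydrase, had 284 and 276 in Phf8oe and 22 and 240 in ctrl. It lay higher in both Phf8oe libraries, but by little over ctrl replicate 2, and the ctrl libraries differed 10.9-fold (log2 fold change 1.92, SE 1.42, adjusted p = 0.496). The log2 fold change of Car9 was 0.22 without ctrl replicate 1 and 3.61 without ctrl replicate 2. Car9 passed without ctrl replicate 2, where only the spread between the Phf8oe libraries, 1.03-fold apart for this gene, is read.

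Egln3, another prolyl hydroxylase that HIF induces, had 1189 and 1845 in Phf8oe and 1701 and 2565 in ctrl (log2 fold change -0.50). Ndrg1, a stress-induced gene needed in rodents for the upkeep of peripheral myelin, had 1090 and 733 in Phf8oe and 1031 and 1424 in ctrl (log2 fold change -0.44). Bnip3, a mitophagy receptor, had 5132 and 4187 in Phf8oe and 4727 and 6430 in ctrl (log2 fold change -0.25). For each of these 3 genes the groups overlapped. Ndrg1 was at a log2 fold change of -0.72 without Phf8oe replicate 1, and passed with only the spread between the ctrl libraries read. Without ctrl replicate 2 the log2 fold changes of Egln3, Ndrg1 and Bnip3 were -0.20, -0.21 and -0.03, and without ctrl replicate 1 they were -0.79, -0.67 and -0.47. Without Phf8oe replicate 2, Ndrg1 and Bnip3 were at -0.15 and -0.10, and Egln3, at -0.18 without Phf8oe replicate 1, was at -0.81. The remaining targets, the collagen prolyl hydroxylase genes P4ha1 and P4ha2 and the ankyrin repeat gene Ankrd37, had log2 fold changes of -0.11, -0.35 and -0.07, also with overlap.

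The glycolytic enzymes and the other HIF targets are set side by side here with no test of the difference between the lists. Of 16 enzymes tested 1 rose and 1 fell (12.5% called), and of 11 other targets none passed. Of all genes tested, 7.64% were called (2.99% risen and 4.65% fallen). The median log2 fold change was -0.14 for the enzymes and -0.35 for the other targets, a difference of 0.21. Groups did not overlap for 10 of the 16 enzymes (62.5%; 8 lower and 2 higher) and for 3 of the 11 other targets (27.3%; 2 lower and 1 higher), against 57.6% of all genes tested. The SD between replicates of the list median was 0.09 for the enzymes and 0.28 for the other targets. Within single libraries, the enzymes' median minus that of the other targets had an SD between replicates of 0.206. That SD is of values from single libraries, so it is not the SD of the 0.21. The difference of the median log2 fold changes was 0.30 without ctrl replicate 1 and -0.04 without ctrl replicate 2. It was 0.23 without Phf8oe replicate 1 and 0 without Phf8oe replicate 2.

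Ctrl replicate 2 was the library that stood apart for these genes. It was the highest of the 4 libraries for 10 of the 11 other HIF targets (90.9%) and for 12 of the 16 enzymes (75%), against 17.6% of all genes tested. Ctrl replicate 1 lay below ctrl replicate 2 for all 11 other targets and for 15 of 16 enzymes, against 49.7% of all genes. The median log2 difference of ctrl replicate 1 minus ctrl replicate 2 was -0.55 for the other targets and -0.18 for the enzymes, where all genes had a median of 0. The median of the other targets, -0.35 with all libraries, was -0.01 without ctrl replicate 2, -0.51 without ctrl replicate 1 and -0.15 without Phf8oe replicate 2. Hif1a itself had 44243 in ctrl replicate 1 and 46805 in ctrl replicate 2, a 1.06-fold difference. This library was singled out after its values were seen, and what sets it apart was not tested.

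**Figure D4:**
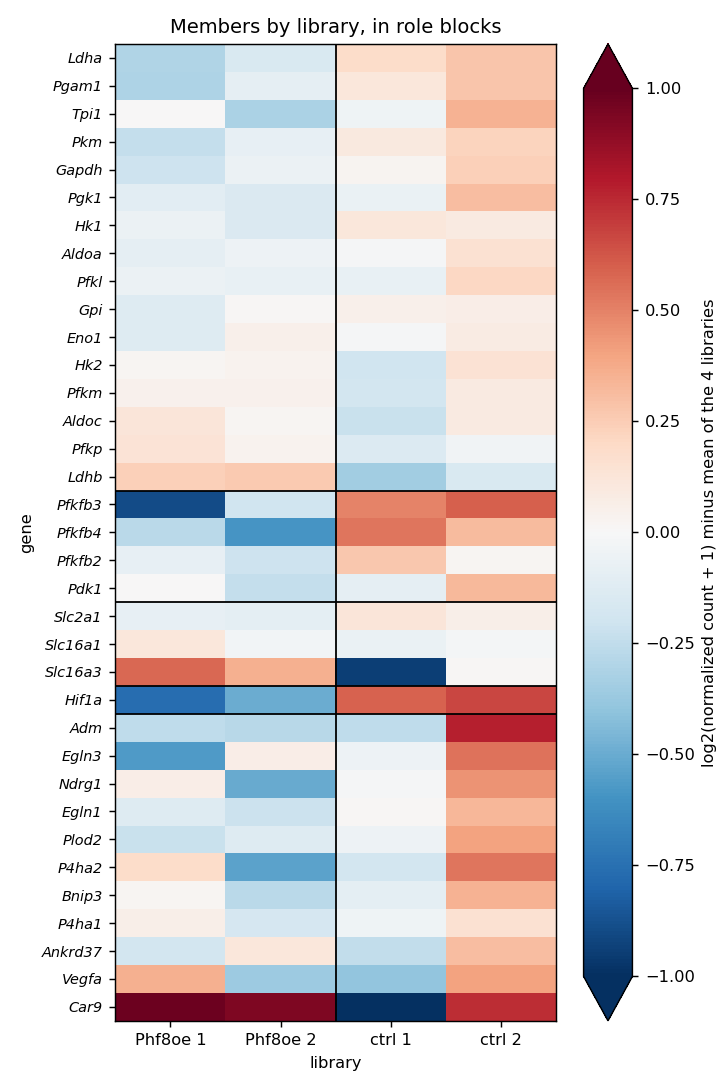
Log2(normalized count + 1) of each tested member (rows, in blocks by role) in each library (columns) minus the mean of the 4 libraries, red above and blue below, with colours capped at 1. In the lowest block the ctrl 2 column is the highest for 10 of the 11 other HIF targets, whereas Hif1a is red in both ctrl columns and blue in both Phf8oe columns.

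A wider list of further HIF targets, none of them members, gave 8 fallen and none risen of 42 tested, of 46 listed (19% fallen, against 4.65% of all genes). Their median log2 fold change was -0.25, and 31 of 42 lay lower (73.8%, against 49.6% of all genes). Groups did not overlap for 26 (61.9%, against 57.6% of all genes), with 23 lower and 3 higher. Of the genes that lay higher, Lox (2.08) and Pgf (1.71) had the largest log2 fold changes, and neither was called. Hmox1, the haem-degrading enzyme heme oxygenase, had 580 and 684 in Phf8oe and 1386 and 1166 in ctrl (log2 fold change -1.01, limma adjusted p = 0.00641). Kdm3a, a histone H3 lysine 9 demethylase, had 3098 and 3268 in Phf8oe and 4696 and 4524 in ctrl (-0.53, adjusted p = 0.0154). The ctrl libraries differed 1.19-fold from each other for Hmox1 and 1.04-fold for Kdm3a. Ak4, a mitochondrial adenylate kinase, had 498 and 603 in Phf8oe and 839 and 1059 in ctrl (-0.78, adjusted p = 0.0252). Igfbp3, a binder of insulin-like growth factors, had 531 and 978 in Phf8oe and 3778 and 3597 in ctrl (-2.35, adjusted p = 0.026). Hmox1 is also known to be induced by oxidative stress. The number fallen in this list was 1 without ctrl replicate 1 (0.133% of all genes fell in that fit) and 1 without ctrl replicate 2 (0.981%), where 1 other rose. It was 10 without Phf8oe replicate 1 (7.94%) and 12 without Phf8oe replicate 2 (8.53%). Ctrl replicate 2 was again the highest library for 25 of the 42 (59.5%, against 17.6% of all genes). The median log2 fold change of this list was nevertheless -0.21 without ctrl replicate 2, and -0.29 without ctrl replicate 1. It was -0.28 without Phf8oe replicate 1 and -0.25 without Phf8oe replicate 2.

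In neighbouring parts of glucose metabolism each of 4 lists held 1 called gene, where 7.64% of all genes tested were called. Among the 18 tested of 28 other genes of glycolysis and gluconeogenesis, Pgm1, the phosphoglucomutase that links glycogen to glycolysis, fell, with 5574 and 6629 in Phf8oe and 8003 and 8827 in ctrl (log2 fold change -0.47, limma adjusted p = 0.0434). Pgm1 is also 1 of the 8 fallen genes of the wider HIF target list. Among the 13 tested of 14 genes of pyruvate entry and oxidation, Pdha1, a catalytic subunit of pyruvate dehydrogenase, rose, with 5418 and 5669 in Phf8oe and 3794 and 4278 in ctrl (0.46, adjusted p = 0.0325). In that list 7 of 13 genes lay higher without overlap (53.8%, against 28.9% of all genes) and 2 lay lower, with a median of 0.20. Among the 9 tested of 10 pentose phosphate genes, Prps1, which makes the ribose donor of nucleotide synthesis, rose, with 4318 and 4299 in Phf8oe and 2791 and 3322 in ctrl (0.50, adjusted p = 0.0316). Among the 12 tested of 14 other glucose and monocarboxylate transporters, Slc16a10, a carrier of aromatic amino acids, rose, with 59 and 48 in Phf8oe and 18 and 16 in ctrl (1.59, adjusted p = 0.026).

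Of the 17 tested of 23 genes of oxygen sensing and the HIF machinery none passed in limma, where 7.64% of all genes tested did. Their median log2 fold change was 0.03. Groups did not overlap for 12 of the 17 (70.6%, against 57.6% of all genes), with 6 lower and 6 higher. By the naming rule, Rack1, a scaffold that can promote HIF alpha breakdown, had 39631 and 41601 in Phf8oe and 29576 and 33245 in ctrl (0.37, adjusted p = 0.0713). Os9, a lectin of protein quality control, had 24861 and 23681 in Phf8oe and 24219 and 23241 in ctrl (0.03, adjusted p = 0.872). Rack1 lay higher in both Phf8oe libraries and Os9 overlapped.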

How the data were processed

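Messenger RNA of 2 Phf8oe and 2 ctrl libraries was sequenced as read pairs (150 bases, per the labels). The submitters' processing notes list STAR 2.5.2b, Trimmomatic 0.36, bcl2fastq 2.20, DESeq2 and the builds Rnor_6.0 and rn6. No source used here names the gene counter, the annotation release, strand use or the listing filter. Values deposited by the authors are a signal that amounts to scaled, rounded counts, although the labels call it raw: in Phf8oe replicate 2 all 85 whole numbers between 10 and 300 that scaled, rounded reads would skip were absent, 1 read being worth 1.4159. In the other libraries 1 read was worth 0.8445 (ctrl replicate 1), 1.0176 (ctrl replicate 2) and 0.9549 (Phf8oe replicate 1). Deposited totals ran from 39945215 to 41149255, and the 4 sample files equalled their columns.

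The 14368 genes that reached 10 in 2 or more libraries were tested in R 4.3.3 with limma 3.58.1, using log2(value + 1), group as the only term, robust moderation with a variance trend, and Benjamini-Hochberg adjustment over all genes (threshold 0.05). Residual degrees of freedom were 2 and prior ones had a median of 6.99. The procedure was tested on simulated data with the same spread setting for every gene and no library set apart, unlike the data here. Called members, those with the highest mean or largest change in each role, isozyme pairs, and the 5 with the smallest p among the rest were given in full by rule. Other members were to be given by fold change, but library values of many of them are printed too, chosen after they were seen. Each wider list gave up to 4 called genes by smallest p, or else its 2 highest by level. Members and lists were chosen with earlier results of these data known. Alternatives covered moderation, scaling, pseudocount, filter, limma-voom on estimated reads, pairing and leaving out each library. Promoters came from RefSeq (GRCr8) by symbol, an assembly other than the counts' build. Motifs were searched in Python 3.11.15.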

Additional observations from a re-analysis of the deposited data

How the results depend on the processing

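Over 15 alternatives, 481 member results kept their direction and side of the threshold, 16 lost the call, 14 gained it and 13 changed sign. Of the 14368 genes tested, 1098 passed, against 0 with no variance trend in limma (3133 at an unadjusted p under 0.05), 373 with the replicate block, 2354 with crossed pairing and 20 to 2145 with 1 library left out. Upper quartile scaling turned the split of calls from 430 higher and 668 lower to 614 higher and 598 lower. The 4 members called became 0, 2 (Pfkfb3 and Hif1a), 10 and 0 to 7 in the same order. Replicate numbers are shared by label only, and same-numbered libraries did not deviate together (correlation -0.13 over genes), so the block says nothing of pairing by design; crossed pairing was added after seeing the data. With 1 library left out, the spread is measured in the other group alone and the lone library is assumed to vary like it. The median log2 fold change then ranged from -0.51 to -0.01 for other HIF targets and the enzymes' median minus theirs from -0.04 to 0.3. Sign changes with 1 library left out, all among uncalled genes, spanned -0.12 to 0.23 for Hk2, -0.27 to 0 for Pfkl, -0.05 to 0.23 for Pfkm, -0.02 to 0.29 for Aldoc, -0.17 to 0.01 for Eno1, -0.4 to 0.39 for Vegfa, -0.35 to 0.21 for Ankrd37, -0.23 to 0 for P4ha1 and -0.71 to 0.01 for P4ha2. Vegfa was also 0.04 with upper quartile scaling. With 2 libraries a group, a missed threshold does not show that values did not differ.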
